A study of Apostichopus japonicus with 9 samples.

Results

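Pieces of sea cucumber body wall (AJBW, from *Apostichopus japonicus*) incubated at 37 °C for 3 h (T_3h) were compared with fresh body wall (CON), gene by gene, in the RNA-seq data of a study of tenderization, the softening of the body wall during mild heating. The comparison used 6 of the 9 libraries of the series, 3 of T_3h and 3 of CON. The other 3 libraries, incubated for 1 h (T_1h), entered the comparison only through the estimate of the spread between libraries and through the scale factors. The members were the 20330 of 53665 genes with a mean of at least 1 FPKM (fragments per kilobase of transcript, relative to all mapped fragments of a library) over the 6 T_3h and CON libraries. Of these, 5502 (27.06%) carried a protein description in the deposited table, 2983 carried a GO term and 1964 a KEGG pathway. All groups were wild-type body walls of live animals bought at market (labelled body weight 150 ± 20 g), opened and freed of viscera and head, with no allele and no agent. Pieces of T_3h and T_1h body wall lay in dishes at 37 °C for their time before freezing, and CON pieces were frozen fresh. The labels call the 3 libraries of a group biological replicates, and the sources used here do not say whether libraries of the same number came from 1 animal.

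The body wall of a sea cucumber is mostly connective tissue. Collagen fibrils lie in a matrix of proteoglycans and glycoproteins, covered by an epidermis, crossed by nerves and lined by bands of muscle, and coelomocytes, the wandering immune cells of echinoderms, move through it. Matrix metalloproteinases, cathepsins and other endogenous proteases break down this tissue when it softens, and heat can unfold proteins, which chaperones of the HSP70 and HSP90 families hold or refold. In a cut piece of body wall held warm, an RNA level can differ through transcription in cells still alive, through decay of the RNA or through loss of the cells that carry it. How many cells stayed alive was not tested. In bulk tissue, fewer cells of a type and less RNA per cell cannot be told apart.

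The labelled tissue matched its markers. The 5 described genes of highest mean FPKM were 3 collagens, a 40S ribosomal protein and ferritin, the iron storage protein. Alpha-2 collagen (MSTRG.32978) had 7239.9, 25036 and 11038 FPKM in T_3h libraries, against 14711, 6221 and 4169.6 FPKM in CON libraries. The spread within each group was as wide as the gap between them, and T_3h_2 held the highest value. Alpha-1 collagen (MSTRG.39736) had 4421, 12047 and 4107 FPKM in T_3h libraries, against 3837, 3820.5 and 2053 FPKM in CON libraries. Here every T_3h library lay above every CON library, but the log2 fold change was 0.95 ± 0.37 (SE; limma, Benjamini-Hochberg adjusted p = 0.183).

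Here and below, values of single libraries are FPKM divided by the scale factor of the library and are given in the order of the library numbers 1, 2 and 3. The factors ran between 0.580 and 1.09 in T_3h and between 0.922 and 1.46 in CON. T_3h_2 stood apart, with 12877 genes at 1 FPKM or more, against 17380 and 21536 in the other T_3h libraries and 17956 to 24915 in CON, and its 10 most abundant genes held 36.4% of all FPKM, against 25.1% and 25.6% in the other T_3h libraries and 13.5% to 18.5% in CON. Before scaling, the median gene was 0.40 lower in T_3h on the log2 scale. After median-ratio scaling the median log2 fold change of the 20330 genes was -0.07, and within the pairs of the same number it was -0.02, -0.12 and -0.01. Fold changes below are T_3h over CON on the scale of log2(scaled FPKM + 1), which understates the change of genes with low values.

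At an adjusted p below 0.05 (limma, Benjamini-Hochberg over the 20330 genes), 194 genes (0.954%) rose and 190 (0.935%) fell in T_3h, together 1.89% of those tested. Their log2 fold changes lay between 1.02 and 3.58 (median 1.77) for the rises and between -0.98 and -3.86 (median -1.67) for the falls. All 384 genes moved the same way in the 3 pairs, as did 16.7% (higher) and 23.3% (lower) of all tested genes. In 168 of the rises and 168 of the falls the T_3h and CON libraries did not overlap. Over all tested genes, 4.94% (higher) and 7.82% (lower) did not overlap. The 384 genes were chosen by a fit to these same paired libraries. Both counts therefore largely follow from that choice and are no separate evidence for the calls. Described genes made up 67 of the rises and 51 of the falls. At the thresholds the study used, applied here to the limma fit (an unadjusted p of 0.05 or less, with a difference of 1 or more on the log2 scale), 763 genes (3.75%) were higher and 1212 (5.96%) lower, together 9.71%, with 38.6% of them higher, and this second count is given below as "past the study's thresholds".

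The adjusted calls rested on the pairing and on most of the libraries. No gene passed the adjusted threshold in a fit without the pairing (limma, 1877 genes at an unadjusted p below 0.05), with the 6 T_3h and CON libraries only (3367 genes), or without T_1h_1, the library that the study set aside (4110 genes). Without T_3h_2 the adjusted counts were 0 and 0 (3114 genes at an unadjusted p below 0.05), while 727 genes were higher and 926 lower past the study's thresholds. Without any scaling of the libraries the split was 184 higher against 1159 lower at the adjusted threshold and 376 against 2822 past the study's thresholds.

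**Figure D1:**
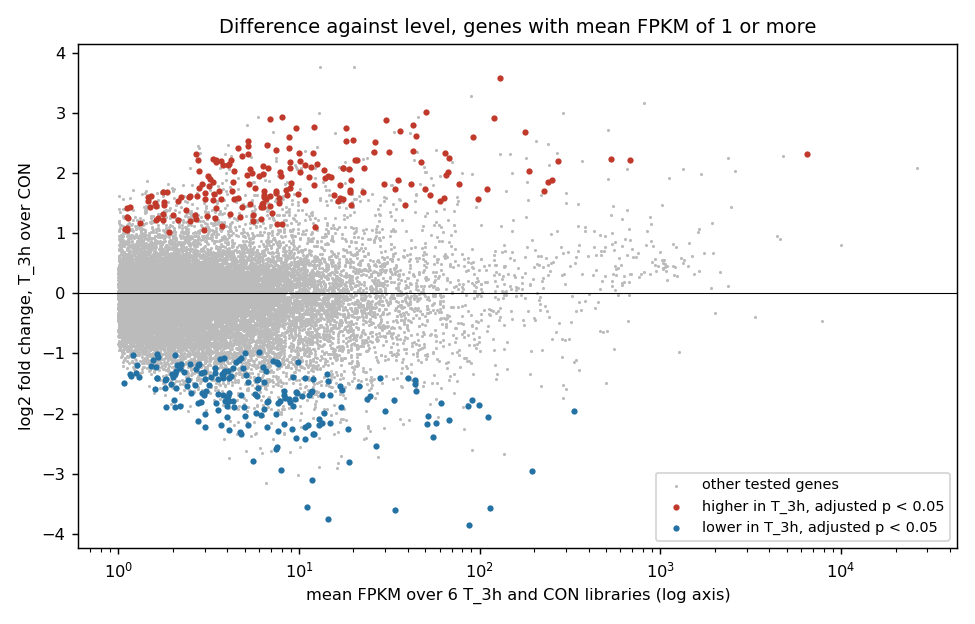
Each point is 1 of 20330 genes, with its mean FPKM over the 6 T_3h and CON libraries on a log axis and its log2 fold change, T_3h over CON, on the other. The 194 rises (red) and 190 falls (blue) at an adjusted p below 0.05 lie at log2 fold changes of 1.02 to 3.58 and of -0.98 to -3.86. They lean to higher levels, with medians of the mean FPKM of 6.81 (rises) and 5.21 (falls), against 2.62 over all tested genes.

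Proteins of the complement and alpha-2-macroglobulin family were among the largest rises. Complement component C3, the central thioester protein of the complement cascade, was represented by several genes. C3 MSTRG.13902 had 34.8, 67.4 and 143 FPKM in T_3h libraries, against 7.11, 10.1 and 16.3 FPKM in CON libraries. All T_3h libraries lay above all CON libraries, and the log2 fold change was 2.61 ± 0.35 (SE; limma, Benjamini-Hochberg adjusted p = 0.0294). The more abundant C3 gene MSTRG.13921 had 484, 405 and 373 FPKM in T_3h libraries, against 77.01, 109.7 and 167 FPKM in CON libraries, again without overlap, with a log2 fold change of 1.89 ± 0.34 (SE; limma, Benjamini-Hochberg adjusted p = 0.0433). Alpha-2-macroglobulin, a protease trap of the same protein family, had 2 genes among the largest rises. MSTRG.552 had 15.8, 32.3 and 26.04 FPKM in T_3h libraries, against 0.926, 3.98 and 3.93 FPKM in CON libraries. Its log2 fold change was 2.77 ± 0.34 (SE; limma, Benjamini-Hochberg adjusted p = 0.0282). MSTRG.45318 had 12.4, 40.3 and 20.7 FPKM in T_3h libraries, against 1.36, 6.24 and 4.495 FPKM in CON libraries, a log2 fold change of 2.33. In both genes the T_3h libraries lay above the CON libraries throughout.

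Of the 79 tested genes described as complement or fibrinogen-related proteins, 3 rose and 1 fell at the adjusted threshold (0.954% and 0.935% of all genes). Past the study's thresholds 15 were higher and 2 lower (19.0% and 2.53%, against 3.75% and 5.96% of all genes). The median log2 fold change of the list was 0.15, against -0.07 over all genes, and 0.43 without T_3h_2. The pairs gave 0.71, -0.34 and 0.34, so that pair 2 went the other way. The third rise was fibrinogen-like protein A (MSTRG.9464), with 16.2, 46.01 and 20.00 FPKM in T_3h libraries, against 5.14, 6.51 and 5.72 FPKM in CON libraries, a log2 fold change of 1.93. The fall was ficolin-2 (MSTRG.31399), a fibrinogen-domain lectin that in vertebrates starts the lectin pathway. It had 0.212, 0.104 and 0.284 FPKM in T_3h libraries, against 9.09, 2.06 and 4.63 FPKM in CON libraries. No T_3h library reached the lowest CON library, and the log2 fold change was -2.22 ± 0.34 (SE; limma, Benjamini-Hochberg adjusted p = 0.0364). Among members that did not pass the adjusted threshold, 5 complement factor B genes had log2 fold changes of 1.10 to 1.84 (MSTRG.6395, MSTRG.3521, MSTRG.27176, MSTRG.19417 and MSTRG.2823). Factor B is the protease subunit of the alternative complement pathway.

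Lectins and scavenger receptors, which bind sugars and polyanions on microbes and dying cells, moved both ways. Of 51 tested members, 4 rose and 1 fell at the adjusted threshold (0.954% and 0.935% of all genes). Past the study's thresholds 9 were higher and 6 lower (3.75% and 5.96% of all genes), and the median was -0.12. The largest rise was a P-selectin-like gene (MSTRG.20807), named after a vertebrate adhesion receptor for leukocytes. It had 131, 589 and 136 FPKM in T_3h libraries, against 18.98, 29.7 and 39.9 FPKM in CON libraries. T_3h_2 held a value over 4 times that of the other T_3h libraries, and the log2 fold change of 2.91 ± 0.48 (SE; limma, Benjamini-Hochberg adjusted p = 0.0391) was 2.37 without it. A gene described as deleted in malignant brain tumors 1 protein-like, a scavenger receptor with cysteine-rich domains (MSTRG.35239), had 60.3, 51.5 and 14.5 FPKM in T_3h libraries, against 9.91, 6.795 and 4.82 FPKM in CON libraries, with a log2 fold change of 2.22. The fall was the gene described as Lectin (MSTRG.11406). It had 62.2, 148 and 168 FPKM in T_3h libraries, against 382, 491 and 484 FPKM in CON libraries. The highest T_3h library held less than the lowest CON library, and the log2 fold change was -1.95 ± 0.29 (SE; limma, Benjamini-Hochberg adjusted p = 0.0347).

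Matrix metalloproteinases cut collagens and other matrix proteins, and tissue inhibitors of metalloproteinases block them. The 72 kDa type IV collagenase (MSTRG.29492), whose vertebrate namesake is matrix metalloproteinase 2, had 39.6, 95.3 and 58.99 FPKM in T_3h libraries, against 15.02, 4.81 and 5.32 FPKM in CON libraries. The groups did not overlap. CON_1 was about 3 times CON_2 and CON_3, and the log2 fold change was 2.88 ± 0.50 (SE; limma, Benjamini-Hochberg adjusted p = 0.0426). Metalloproteinase inhibitor 1-like (MSTRG.23068) had 23.8, 47.05 and 26.5 FPKM in T_3h libraries, against 10.8, 16.01 and 6.62 FPKM in CON libraries, without overlap. Its log2 fold change was 1.47 ± 0.24 (SE; limma, Benjamini-Hochberg adjusted p = 0.0391). Of 3 genes described as matrix metalloproteinase 16 precursor, a membrane-bound member, 1 fell. The most abundant one (MSTRG.5484) had 87.1, 137 and 143 FPKM in T_3h libraries, against 45.5, 31.1 and 41.4 FPKM in CON libraries, with a log2 fold change of 1.60 ± 0.36 (SE; limma, Benjamini-Hochberg adjusted p = 0.0703). The one that fell (MSTRG.45005) had 1.49, 1.804 and 2.32 FPKM in T_3h libraries, against 14.4, 7.05 and 5.62 FPKM in CON libraries, with a log2 fold change of -1.72 ± 0.32 (SE; limma, Benjamini-Hochberg adjusted p = 0.0476), and the log2 fold change of the third (MSTRG.29834) was -0.35. In all, 2 of the 18 tested members of this list rose and 1 fell (0.954% and 0.935% of all genes). Past the study's thresholds 5 were higher and 1 lower (3.75% and 5.96% of all genes), and the median was 0.41.

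Collagens themselves were not called. Of 21 tested genes 0 passed the adjusted threshold, 4 were higher and 2 lower past the study's thresholds (3.75% and 5.96% of all genes), and 6 were higher and 2 lower in every T_3h library than in every CON library (4.94% and 7.82% of all genes). The median of the list was 0.32, but the pairs gave -0.70, 0.77 and 0.83, so that pair 1 went the other way, and without T_3h_2 the median was 0.15. The summed collagen level was 16887, 56392 and 23372 FPKM in T_3h, against 26486, 14972 and 9187 FPKM in CON. The smallest adjusted p belonged to an alpha-2 collagen of low level (MSTRG.46350), which had 0.134, 0.115 and 0.506 FPKM in T_3h libraries, against 6.37, 2.31 and 2.75 FPKM in CON libraries. Of 49 tested genes matched by the keywords for other matrix proteins, 1 rose and 1 fell (0.954% and 0.935% of all genes). Spondin-2-like and cartilage oligomeric matrix protein, which rose and are described further on, are not matched by these keywords. Thrombospondin-1 (MSTRG.14033), a matricellular glycoprotein, had 61.1, 80.3 and 198 FPKM in T_3h libraries, against 14.2, 18.3 and 76.8 FPKM in CON libraries. It was higher in each pair, although CON_3 exceeded T_3h_1, and the log2 fold change was 1.82 ± 0.27 (SE; limma, Benjamini-Hochberg adjusted p = 0.0347). Fibropellin-3 (MSTRG.16502), an echinoderm protein with EGF-like repeats, had 7.08, 0.595 and 1.14 FPKM in T_3h libraries, against 16.9, 2.23 and 2.72 FPKM in CON libraries, and the log2 fold change was -0.99 ± 0.19 (SE; limma, Benjamini-Hochberg adjusted p = 0.0493). The list had a median of -0.02.

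Genes of muscle and of the actin-myosin machinery were split. Of 22 tested contractile protein genes, 3 rose and 0 fell at the adjusted threshold (0.954% and 0.935% of all genes). Past the study's thresholds 7 were higher and 4 lower (3.75% and 5.96% of all genes), and the median was 0.06, or -0.21 without T_3h_2. The striated muscle myosin heavy chain gene MSTRG.24083, the motor of the thick filament, had 9.76, 19.3 and 21.1 FPKM in T_3h libraries, against 1.64, 3.73 and 3.11 FPKM in CON libraries. The groups did not overlap and the log2 fold change was 2.19 ± 0.32 (SE; limma, Benjamini-Hochberg adjusted p = 0.0339). Troponin I (MSTRG.18626), the inhibitory subunit of the calcium switch on thin filaments, had 11.9, 25.7 and 15.3 FPKM in T_3h libraries, against 2.64, 3.196 and 3.75 FPKM in CON libraries, with a log2 fold change of 2.09. A titin gene (MSTRG.30676), the elastic filament of the sarcomere, had 4.02, 4.34 and 19.9 FPKM in T_3h libraries, against 0.111, 1.43 and 2.23 FPKM in CON libraries, with a log2 fold change of 2.001. The abundant actin gene MSTRG.7223 had 461, 775 and 766 FPKM in T_3h libraries, against 874, 612 and 549 FPKM in CON libraries, with a log2 fold change of -0.03 ± 0.39 (SE; limma, Benjamini-Hochberg adjusted p = 0.968). Past the study's thresholds on the lower side were filamin-B (MSTRG.33359, -1.48), a crosslinker of actin, another titin gene (MSTRG.46763, -1.48) and 2 genes for tropomodulin-1-like proteins, which cap the thin filament (MSTRG.7336, -1.40, and MSTRG.29874, -1.34, all log2 fold changes).

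Myosin light chains, which stiffen and regulate the myosin lever arm, were outside that list, and 2 of them were among the 15 largest rises. The myosin-2 essential light chain-like gene (MSTRG.37164) had 73.9, 130.5 and 67.2 FPKM in T_3h libraries, against 15.5, 7.999 and 12.2 FPKM in CON libraries. The lowest T_3h library was over 4 times the highest CON library, and the log2 fold change was 2.81 ± 0.41 (SE; limma, Benjamini-Hochberg adjusted p = 0.0339). The gene for myosin regulatory light chain 12A (MSTRG.17224), a non-muscle and smooth muscle light chain in vertebrates, had 148, 268 and 151 FPKM in T_3h libraries, against 31.1, 24.3 and 32.3 FPKM in CON libraries. It did not overlap either, and the log2 fold change was 2.60 ± 0.40 (SE; limma, Benjamini-Hochberg adjusted p = 0.0361).

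The other rises among the 15 largest came from several classes. Glutamate receptor 2 (MSTRG.32642), named after an ion channel of excitatory synapses, had 11.2, 34.01 and 12.7 FPKM in T_3h libraries, against 0.767, 1.999 and 1.51 FPKM in CON libraries. The groups did not overlap, and the log2 fold change was 2.93 ± 0.37 (SE; limma, Benjamini-Hochberg adjusted p = 0.0282). The cysteine-rich motor neuron 1 protein gene (MSTRG.28367), in vertebrates a membrane protein that binds bone morphogenetic proteins, had 325, 558 and 240.3 FPKM in T_3h libraries, against 52.4, 47.9 and 61.9 FPKM in CON libraries. Its lowest T_3h library was nearly 4 times its highest CON library, and the log2 fold change was 2.69 ± 0.43 (SE; limma, Benjamini-Hochberg adjusted p = 0.0391). Spondin-2-like (MSTRG.14041), a secreted matrix protein, had 50.2, 69.3 and 59.1 FPKM in T_3h libraries, against 8.95, 14.9 and 9.19 FPKM in CON libraries. Its T_3h libraries lay close together, and the log2 fold change was 2.36 ± 0.24 (SE; limma, Benjamini-Hochberg adjusted p = 0.0233). The beta-carotene monooxygenase gene (MSTRG.47100), for the enzyme that makes retinal from carotene, had 7.26, 15.04 and 10.4 FPKM in T_3h libraries, against 0.961, 2.14 and 0.965 FPKM in CON libraries, with a log2 fold change of 2.32 ± 0.22 (SE; limma, Benjamini-Hochberg adjusted p = 0.0201). An ependymin-related protein precursor (MSTRG.42653) had a log2 fold change of 2.33, and a plasminogen-like gene (MSTRG.3154), named after the precursor of the fibrin-cutting protease plasmin, one of 2.29.

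**Figure D2:**
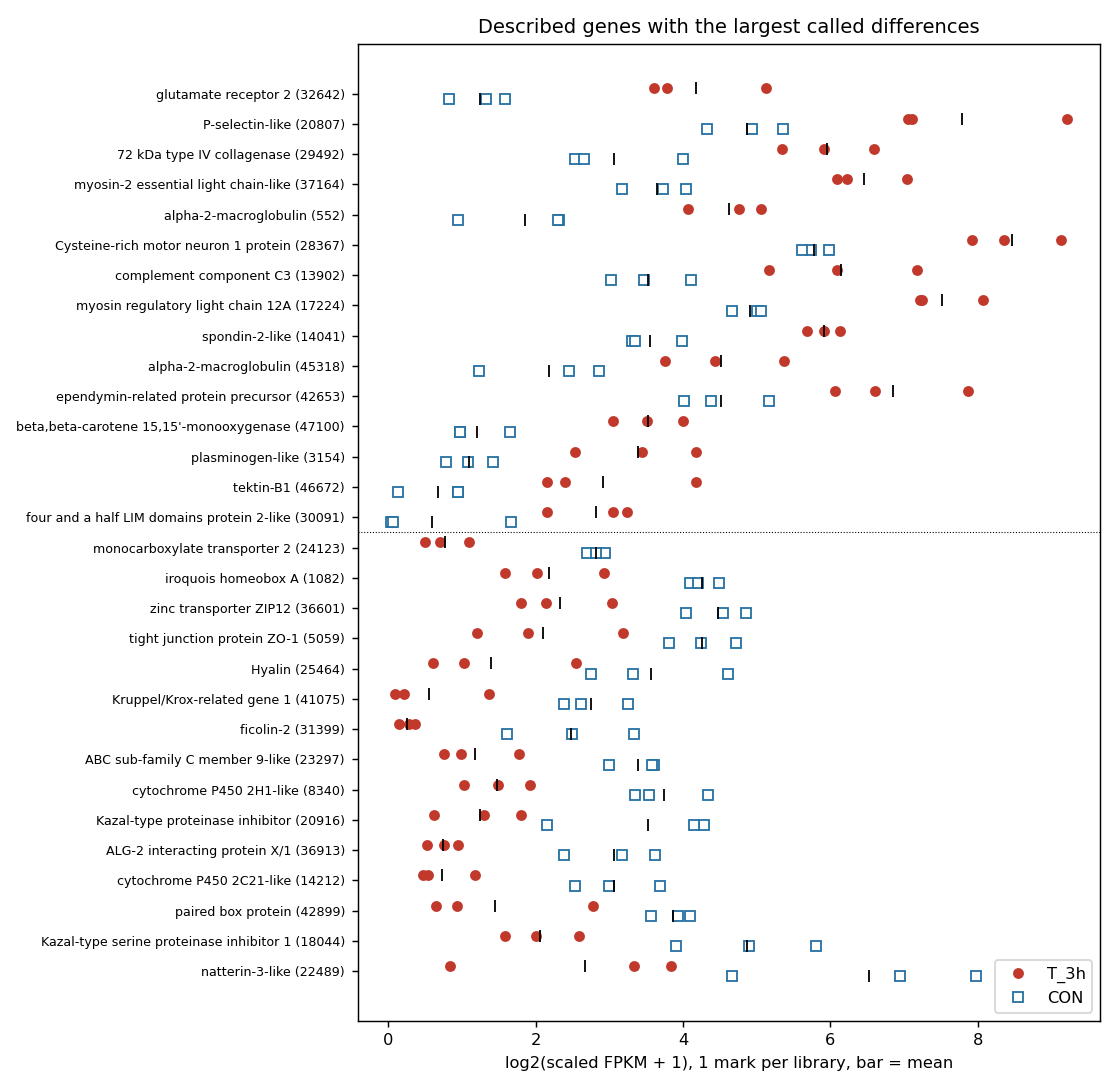
The 15 described genes with the largest rises (above the dotted line) and the 15 with the largest falls (below it) at an adjusted p below 0.05, as log2(scaled FPKM + 1) in each library, with T_3h as red circles, CON as open blue squares and a bar at each mean. In each of these 30 genes the T_3h and CON libraries do not overlap. Numbers in brackets are the gene numbers of the deposited table.

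The largest fall of a described gene was that of natterin-3-like (MSTRG.22489), named after a family of fish venom proteins with a pore-forming domain. It had 0.782, 9.13 and 13.3 FPKM in T_3h libraries, against 24.4, 249.8 and 122 FPKM in CON libraries. The T_3h libraries all lay below CON_1, the lowest CON library, and the log2 fold change was -3.86 ± 0.32 (SE; limma, Benjamini-Hochberg adjusted p = 0.0201). Both genes described as Kazal-type inhibitors, small proteins that block serine proteases, fell. MSTRG.18044 had 3.03, 5.001 and 2.01 FPKM in T_3h libraries, against 54.8, 28.8 and 13.9 FPKM in CON libraries. The highest T_3h library held less than the lowest CON library, and the log2 fold change was -2.80 ± 0.36 (SE; limma, Benjamini-Hochberg adjusted p = 0.0282). MSTRG.20916 had 1.47, 2.502 and 0.533 FPKM in T_3h libraries, against 18.5, 16.7 and 3.44 FPKM in CON libraries, with a log2 fold change of -2.28 ± 0.32 (SE; limma, Benjamini-Hochberg adjusted p = 0.0294).

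Falls in enzymes and carriers followed. The cytochrome P450 genes 2C21-like (MSTRG.14212) and 2H1-like (MSTRG.8340), named after oxygenases that act on drugs and steroids in vertebrates, had log2 fold changes of -2.34 ± 0.21 (SE; limma, Benjamini-Hochberg adjusted p = 0.0201) and -2.26 ± 0.24 (SE; limma, Benjamini-Hochberg adjusted p = 0.0233). For 2C21-like the values were 1.25, 0.453 and 0.381 FPKM in T_3h libraries, against 11.8, 4.801 and 6.94 FPKM in CON libraries. Monocarboxylate transporter 2 (MSTRG.24123), a carrier of lactate and pyruvate, had 0.631, 0.414 and 1.13 FPKM in T_3h libraries, against 5.502, 6.68 and 6.05 FPKM in CON libraries. The T_3h libraries stayed near or under 1 FPKM, and the log2 fold change was -2.05 ± 0.25 (SE; limma, Benjamini-Hochberg adjusted p = 0.0282). The zinc transporter ZIP12 gene MSTRG.36601 had 2.48, 3.41 and 7.24 FPKM in T_3h libraries, against 22.3, 28.1 and 15.4 FPKM in CON libraries, with a log2 fold change of -2.15. Another gene of the same description (MSTRG.1131) went the other way without passing the adjusted threshold. It had 1.52, 12.3 and 6.46 FPKM in T_3h libraries, against 0.217, 1.43 and 2.44 FPKM in CON libraries. Its log2 fold change was 1.54 ± 0.36 (SE; limma, Benjamini-Hochberg adjusted p = 0.0725). The ATP-binding cassette sub-family C member 9-like gene (MSTRG.23297), named after a regulatory subunit of potassium channels, had a log2 fold change of -2.22.

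Genes of other classes were among the falls. A paired box protein (MSTRG.42899), iroquois homeobox A (MSTRG.1082) and Kruppel/Krox-related gene 1 (MSTRG.41075), all transcription factors known from development, had log2 fold changes of -2.41, -2.08 and -2.20. Iroquois homeobox A had 3.06, 1.99 and 6.62 FPKM in T_3h libraries, against 16.03, 21.5 and 17.4 FPKM in CON libraries. None of the 3 overlapped between the groups, and T_3h_3 held the highest T_3h value in each. Tight junction protein ZO-1 (MSTRG.5059), the scaffold under epithelial junctions, had 1.31, 2.73 and 8.11 FPKM in T_3h libraries, against 12.99, 25.4 and 17.96 FPKM in CON libraries. Its log2 fold change was -2.16 ± 0.34 (SE; limma, Benjamini-Hochberg adjusted p = 0.0391). A second ZO-1 gene (MSTRG.8422) fell as well, with 1.72, 1.597 and 12.9 FPKM in T_3h libraries, against 15.7, 13.5 and 24.1 FPKM in CON libraries and a log2 fold change of -1.98 ± 0.35 (SE; limma, Benjamini-Hochberg adjusted p = 0.0432). Hyalin (MSTRG.25464), a protein of the outer layer of echinoderm embryos, had 1.03, 4.84 and 0.522 FPKM in T_3h libraries, against 8.97, 23.4 and 5.76 FPKM in CON libraries, with a log2 fold change of -2.17. The gene for ALG-2 interacting protein X (MSTRG.36913), an adaptor of the ESCRT machinery that sorts membrane proteins into vesicles, had 0.445, 0.692 and 0.932 FPKM in T_3h libraries, against 11.3, 8.03 and 4.21 FPKM in CON libraries. It did not overlap, and the log2 fold change was -2.31 ± 0.38 (SE; limma, Benjamini-Hochberg adjusted p = 0.0391).

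The cathepsins and the KEGG lysosome and endocytosis pathways had negative medians. All 9 tested cathepsin list members, the main lysosomal proteases, had negative log2 fold changes, also under upper-quartile scaling, without scaling and without T_3h_2, and their median was -0.81, against -0.07 over all genes. The pairs gave -1.19, -1.08 and -0.18. Only cathepsin L2 cysteine protease (MSTRG.37729) passed the adjusted threshold. It had 3.41, 3.93 and 0.223 FPKM in T_3h libraries, against 8.74, 10.1 and 1.49 FPKM in CON libraries. The libraries of the 2 groups overlapped, with number 3 low in both, and the log2 fold change was -1.11 ± 0.21 (SE; limma, Benjamini-Hochberg adjusted p = 0.0493). The most abundant member, cathepsin L (MSTRG.29892), had 283, 89.5 and 232 FPKM in T_3h libraries, against 648, 321 and 303 FPKM in CON libraries. Its groups did not overlap, and the log2 fold change was -1.13 ± 0.45 (SE; limma, Benjamini-Hochberg adjusted p = 0.187). Cathepsin D (MSTRG.32391), an aspartic protease, had 28.8, 33.2 and 42.1 FPKM in T_3h libraries, against 144, 86.4 and 44.8 FPKM in CON libraries, with a log2 fold change of -1.24.

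The 80 tested genes of the KEGG lysosome pathway had a median of -0.42, with 0 rises and 2 falls at the adjusted threshold (0.954% and 0.935% of all genes). Past the study's thresholds 0 were higher and 8 lower (3.75% and 5.96% of all genes). Besides the cathepsins, the lower genes included sialidase-1 (MSTRG.34620, log2 fold change -1.54), which removes sialic acids, and lysosomal protective protein (MSTRG.20982, -1.36), which shields it. The 110 genes of the KEGG endocytosis pathway had the same median of -0.42, and both stand against -0.18 over all genes with a KEGG pathway. Of the 110 endocytosis genes, 0 rose and 1 fell at the adjusted threshold (0.954% and 0.935% of all genes). Past the study's thresholds 1 was higher and 18 were lower (3.75% and 5.96% of all genes). In all 3 pairs 47 were lower and 5 higher (23.3% lower and 16.7% higher over all genes). Pair medians were -0.41, -0.86 and -0.16, and without T_3h_2 the median was -0.23. Named members on the lower side were the ubiquitin ligase NEDD4 (MSTRG.20947, log2 fold change -1.55), endophilin-B1 (MSTRG.39006, -1.31), which bends membranes, epsin-2 (MSTRG.7450, -1.12), a clathrin adaptor, and the small GTPases Rab-11B (MSTRG.38536, -1.19) and Rab-7a (MSTRG.424, -1.01) of recycling and late endosomes. Rab-7a had 19.5, 8.21 and 35.5 FPKM in T_3h libraries, against 34.4, 31.1 and 48.8 FPKM in CON libraries. Except for ALG-2 interacting protein X, none of these passed the adjusted threshold.

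The 47 genes of the proteasome list had a median of -0.34, with 11 above 0, and 1 rose and 0 fell (0.954% and 0.935% of all genes). The pairs gave 0.05, -0.45 and -0.22, and without T_3h_2 the median was -0.15. The rise was the proteasome-associated protein ECM29 homolog (MSTRG.25806), an adaptor that binds the assembled particle, which had 5.98, 6.63 and 3.903 FPKM in T_3h libraries, against 0.421, 1.84 and 1.46 FPKM in CON libraries and a log2 fold change of 1.57 ± 0.29 (SE; limma, Benjamini-Hochberg adjusted p = 0.0476). Of the 61 tested genes of ubiquitin mediated proteolysis (KEGG), 0 passed the adjusted threshold, and the median was -0.37. Past the study's thresholds 1 was higher and 3 were lower (3.75% and 5.96% of all genes). Calpains and caspases, the calcium-dependent and apoptotic proteases, had 6 tested members, none of which passed the adjusted threshold, and a median of -0.42, or -0.20 without T_3h_2. Caspase 3/9 (MSTRG.3475) had 12.03, 15.1 and 16.6 FPKM in T_3h libraries, against 15.9, 26.05 and 22.2 FPKM in CON libraries, with a log2 fold change of -0.51 ± 0.21 (SE; limma, Benjamini-Hochberg adjusted p = 0.197). The most abundant member, calpain-9 (MSTRG.33722), was higher in each pair, while the groups overlapped. It had 77.3, 62.1 and 74.9 FPKM in T_3h libraries, against 71.2, 41.7 and 36.2 FPKM in CON libraries. Its log2 fold change was 0.57 ± 0.25 (SE; limma, Benjamini-Hochberg adjusted p = 0.230). None of 27 tested apoptosis regulators was called, 0 were higher and 2 lower past the study's thresholds (3.75% and 5.96% of all genes), and their median was -0.13.

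Heat shock proteins, which fold and protect proteins in heated cells, were not called. Of the 9 tested HSP70 and HSP110 genes 0 passed either threshold, and their median was 0.01, with pair medians of 0.71, -0.92 and -0.12, and 0.32 without T_3h_2. The most abundant, heat shock cognate 70 (MSTRG.20083), had 97.2, 48.8 and 194 FPKM in T_3h libraries, against 37.3, 93.5 and 172 FPKM in CON libraries. It was higher in T_3h in pairs 1 and 3 and lower in pair 2, and the log2 fold change of 0.20 ± 0.42 (SE; limma, Benjamini-Hochberg adjusted p = 0.797) was 0.75 without T_3h_2. HSP90-alpha 3 (MSTRG.12166) had 97.1, 45.8 and 172 FPKM in T_3h libraries, against 115, 108 and 155 FPKM in CON libraries, with a log2 fold change of -0.44 ± 0.33 (SE; limma, Benjamini-Hochberg adjusted p = 0.467). T_3h_2 held the lowest level of the 6 libraries. Among 25 small heat shock proteins and co-chaperones, 0 passed the adjusted threshold, and the median was -0.16, or 0.04 without T_3h_2. Past the study's thresholds 0 were higher and 1 lower (3.75% and 5.96% of all genes). The lower one was a dnaJ homolog subfamily B member 1-like gene (MSTRG.17687), a partner that activates HSP70, with 4.17, 2.58 and 8.197 FPKM in T_3h libraries, against 14.7, 9.02 and 11.5 FPKM in CON libraries and a log2 fold change of -1.18 ± 0.30 (SE; limma, Benjamini-Hochberg adjusted p = 0.0841). Several genes share the description heat shock cognate 70. Whether reads from near-identical copies were split between them was not tested.

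The 13 stress and early-response transcription factors had a median of -0.17 and no call, and without T_3h_2 the median was 0.06, with 7 of 13 above 0, against 4 of 13 with it. Fos-related antigen 1 (MSTRG.30603), an immediate early factor of the AP-1 family, had 29.8, 47.9 and 37.3 FPKM in T_3h libraries, against 3.33, 16.9 and 22.97 FPKM in CON libraries. All T_3h libraries lay above all CON libraries, with a log2 fold change of 1.65 ± 0.44 (SE; limma, Benjamini-Hochberg adjusted p = 0.0934). Hypoxia-inducible factor 1-alpha (MSTRG.11189) had 169.9, 186 and 122 FPKM in T_3h libraries, against 103, 106 and 80.7 FPKM in CON libraries, without overlap, and a log2 fold change of 0.71 ± 0.57 (SE; limma, Benjamini-Hochberg adjusted p = 0.491). Antioxidant enzymes had 41 tested members, of which 0 rose and 2 fell (0.954% and 0.935% of all genes), and a median of -0.19. Both falls were microsomal glutathione S-transferase 1 genes, membrane enzymes that conjugate glutathione to reactive compounds. MSTRG.15635 had 0.643, 0.687 and 1.82 FPKM in T_3h libraries, against 3.69, 5.83 and 7.34 FPKM in CON libraries. No T_3h library reached the lowest CON library, and the log2 fold change was -1.70 ± 0.20 (SE; limma, Benjamini-Hochberg adjusted p = 0.027). MSTRG.39209 had 3.34, 3.84 and 4.01 FPKM in T_3h libraries, against 6.64, 11.6 and 10.7 FPKM in CON libraries, with a log2 fold change of -1.14 ± 0.20 (SE; limma, Benjamini-Hochberg adjusted p = 0.0432). Of 6 tested iron-binding protein genes, 1 rose (0.954% of all genes). This melanotransferrin gene (MSTRG.32738), for an iron-binding protein related to transferrin, had 1070.2, 2032 and 926 FPKM in T_3h libraries, against 296, 244 and 274 FPKM in CON libraries. It was higher by more than 3 times in each pair, with a log2 fold change of 2.22 ± 0.40 (SE; limma, Benjamini-Hochberg adjusted p = 0.0446). A second melanotransferrin gene (MSTRG.32733) had 46.8, 131 and 36.7 FPKM in T_3h libraries, against 2.25, 12.5 and 19.3 FPKM in CON libraries, with a log2 fold change of 2.69 ± 0.59 (SE; limma, Benjamini-Hochberg adjusted p = 0.0657). Ferritin (MSTRG.43507) had 2764, 3032 and 2557 FPKM in T_3h libraries, against 5940.4, 2919.7 and 2765 FPKM in CON libraries, which overlapped, with a log2 fold change of -0.39.

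Ribosomal proteins, the structural parts of the translation machinery, stood at the other end from the lysosome genes. All 84 tested genes of cytoplasmic ribosomal proteins had log2 fold changes above 0, with a range of 0.05 to 1.54. Their median was 0.59, against -0.07 over all genes and 0.21 over the 602 tested genes with a mean of 50 FPKM or more. The same 84 were above 0 under upper-quartile scaling, but 50 of 84 were without scaling and 78 of 84 without T_3h_2. Unscaled, the list median lay 0.46 above that of all genes, and without T_3h_2 the median was 0.35. In all 3 pairs 52 genes were higher and 0 lower, against 16.7% and 23.3% of all genes, and the pair medians were 0.25, 1.14 and 0.42, the largest in the pair of T_3h_2. No member passed the adjusted threshold, and 10 were higher and 0 lower past the study's thresholds (3.75% and 5.96% of all genes). Ribosomal protein L32e (MSTRG.19333), the member with the smallest p, had 606, 859 and 303 FPKM in T_3h libraries, against 335, 379.9 and 122 FPKM in CON libraries. It was higher in each pair, while the groups overlapped across numbers, and the log2 fold change was 1.11 ± 0.25 (SE; limma, Benjamini-Hochberg adjusted p = 0.0678). The 60S ribosomal protein L27 gene (MSTRG.22306) had 746, 600.4 and 353 FPKM in T_3h libraries, against 161, 174 and 256 FPKM in CON libraries, without overlap, and the largest log2 fold change was that of 60S ribosomal protein L35 (MSTRG.23953), 1.54, with 105, 182 and 97.03 FPKM in T_3h libraries, against 50.5, 33.6 and 42.5 FPKM in CON libraries. The most abundant member, 40S ribosomal protein S15-like (MSTRG.44256), had 2764, 3518 and 1354 FPKM in T_3h libraries, against 3533, 1849 and 971 FPKM in CON libraries and a log2 fold change of 0.35. The summed level of the list was 71281, 103528 and 40385 FPKM in T_3h, against 64563, 48026 and 30322 FPKM in CON.

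The proteins of mitochondrial ribosomes showed the direction less strongly, with 52 of 67 genes above 0, a median of 0.22 and no gene past either threshold. Without scaling, 22 of these 67 were above 0. Other parts of gene expression lay near the overall shift. The 38 translation factors had a median of -0.04 and the 106 spliceosome genes (KEGG) one of -0.04, with no gene of either past the adjusted or the study's thresholds. Respiratory chain subunits (55 genes, 0 called at the adjusted threshold) had a median of 0.07 and glycolysis enzymes (9 genes, 0 called) one of 0.31, and without T_3h_2 both medians changed sign, to -0.10 and -0.09. The 14 cell cycle and replication genes had a median of 0.01, with none past either threshold.

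**Figure D3:**
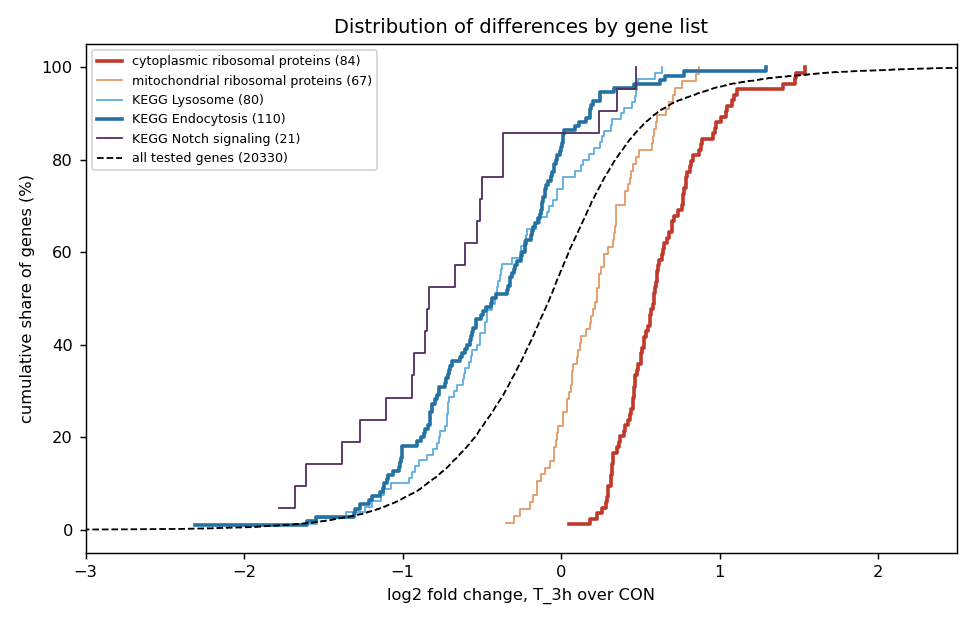
Cumulative share of genes (%) against the log2 fold change, T_3h over CON, for the cytoplasmic and mitochondrial ribosomal proteins, 3 KEGG pathways and all 20330 tested genes (dashed). The curve of the 84 cytoplasmic ribosomal proteins lies entirely above 0 with a median of 0.59, and those of lysosome and endocytosis cross 50% at -0.42.

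Markers of cell types other than connective tissue were counted in the same way. Of 135 genes described as parts of cilia and axonemes, the microtubule core of a cilium, 19 passed the filter on mean FPKM. Of these, 5 rose and 0 fell (0.954% and 0.935% of all genes), and 7 were higher and 1 lower past the study's thresholds (3.75% and 5.96% of all genes). Of the 5 rises, 3 had a mean under 1 FPKM in CON and passed the filter through T_3h, as did 5 of the 19 genes, while 1 of the 19 passed through CON only, so the count leans upward by the choice of genes. Over all tested genes, 1527 had a mean under 1 FPKM in CON and 2749 in T_3h, including 40 of the 194 rises and 64 of the 190 falls. The median of the 19 was 0.48, with 0.41, 0.55 and 0.29 in the pairs. The rises were tektin-B1 (MSTRG.46672), tektin A1 (MSTRG.21843), sperm-associated antigen 6 (MSTRG.40795), radial spoke head protein 4 homolog A-like (MSTRG.25149) and the 33 kDa inner dynein arm light chain (MSTRG.5215). Tektin A1, a filament of axonemal microtubules, had 6.17, 10.5 and 6.399 FPKM in T_3h libraries, against 0.162, 1.29 and 1.72 FPKM in CON libraries. The groups did not overlap, and the log2 fold change was 2.13 ± 0.32 (SE; limma, Benjamini-Hochberg adjusted p = 0.0347). Tektin-B1 had 3.47, 17.1 and 4.25 FPKM in T_3h libraries, against 0.0923, 0.9204 and 0.924 FPKM in CON libraries, with a log2 fold change of 2.24 ± 0.41 (SE; limma, Benjamini-Hochberg adjusted p = 0.0459). The summed level of the 19 genes overlapped, with 178 to 204 FPKM in T_3h, against 137 to 190 FPKM in CON, and includes the tubulin alpha chain (MSTRG.525) that all cells use, with 68.7, 79.1 and 68.4 FPKM in T_3h libraries, against 73.2, 56.4 and 55.7 FPKM in CON libraries.

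Of 27 tested genes for neural receptors, channels and markers (of 176 in the table), 1 rose and 1 fell (0.954% and 0.935% of all genes). Past the study's thresholds 1 was higher and 7 lower (3.75% and 5.96% of all genes). The median was -0.49 and the summed level 252 to 462 FPKM in T_3h, against 512 to 970 FPKM in CON, without overlap. The lack of overlap rested on the most abundant member, MSTRG.32644 below, since without it the sum of T_3h_2 lay above that of CON_3. The fall was a metabotropic glutamate receptor (MSTRG.27442), a G protein-coupled receptor of synapses, with 4.23, 5.78 and 21.2 FPKM in T_3h libraries, against 22.9, 21.6 and 35.4 FPKM in CON libraries and a log2 fold change of -1.55 ± 0.30 (SE; limma, Benjamini-Hochberg adjusted p = 0.0493). A second glutamate receptor 2 gene (MSTRG.32644) had the highest mean FPKM of the list. It had 54.02, 116 and 151 FPKM in T_3h libraries, against 338, 369.8 and 189 FPKM in CON libraries, the reverse of the order in MSTRG.32642, and its log2 fold change was -1.54 ± 0.41 (SE; limma, Benjamini-Hochberg adjusted p = 0.09). The 3 genes described as glutamate receptor 1 had log2 fold changes of -1.43 (MSTRG.10096), -1.42 (MSTRG.4814) and -0.25 (MSTRG.10095).

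Coelomocyte and phagocyte markers (25 of 63 tested) had a median of -0.41, with 1 rise and 0 falls (0.954% and 0.935% of all genes). Their summed level was 402 to 799 FPKM in T_3h, against 275 to 513 FPKM in CON. The rise was amassin (MSTRG.45528), a protein that clumps coelomocytes in sea urchins. It had 35.7, 27.4 and 5.997 FPKM in T_3h libraries, against 7.08, 4.24 and 2.09 FPKM in CON libraries. T_3h_3 was below CON_1, so the groups overlapped, while each pair was higher, with a log2 fold change of 1.93 ± 0.34 (SE; limma, Benjamini-Hochberg adjusted p = 0.0426). Allograft inflammatory factor 1 (MSTRG.24343), a calcium-binding protein of phagocytes, had 276, 559 and 324 FPKM in T_3h libraries, against 125, 229 and 202 FPKM in CON libraries, without overlap, and a log2 fold change of 1.04 ± 0.25 (SE; limma, Benjamini-Hochberg adjusted p = 0.0771). This gene made up most of the summed level of the list in T_3h. Without it the sums of T_3h_1 and T_3h_2 lay below those of CON_1 and CON_2. Digestive tract markers (11 of 56 tested, median -0.04, summed level 32.4 to 48.5 FPKM in T_3h, against 25.5 to 38.7 FPKM in CON) had 1 rise (0.954% of all genes). This was carboxypeptidase B (MSTRG.46836), with 3.38, 5.74 and 3.77 FPKM in T_3h libraries, against 0.623, 1.23 and 1.16 FPKM in CON libraries. Germ line markers (7 of 28 tested) had no call, a median of 0.20 and a summed level of 45.9 to 304 FPKM in T_3h, against 49.4 to 87.7 FPKM in CON. The part of differences in cell makeup in the other results was not tested.

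**Figure D4:**
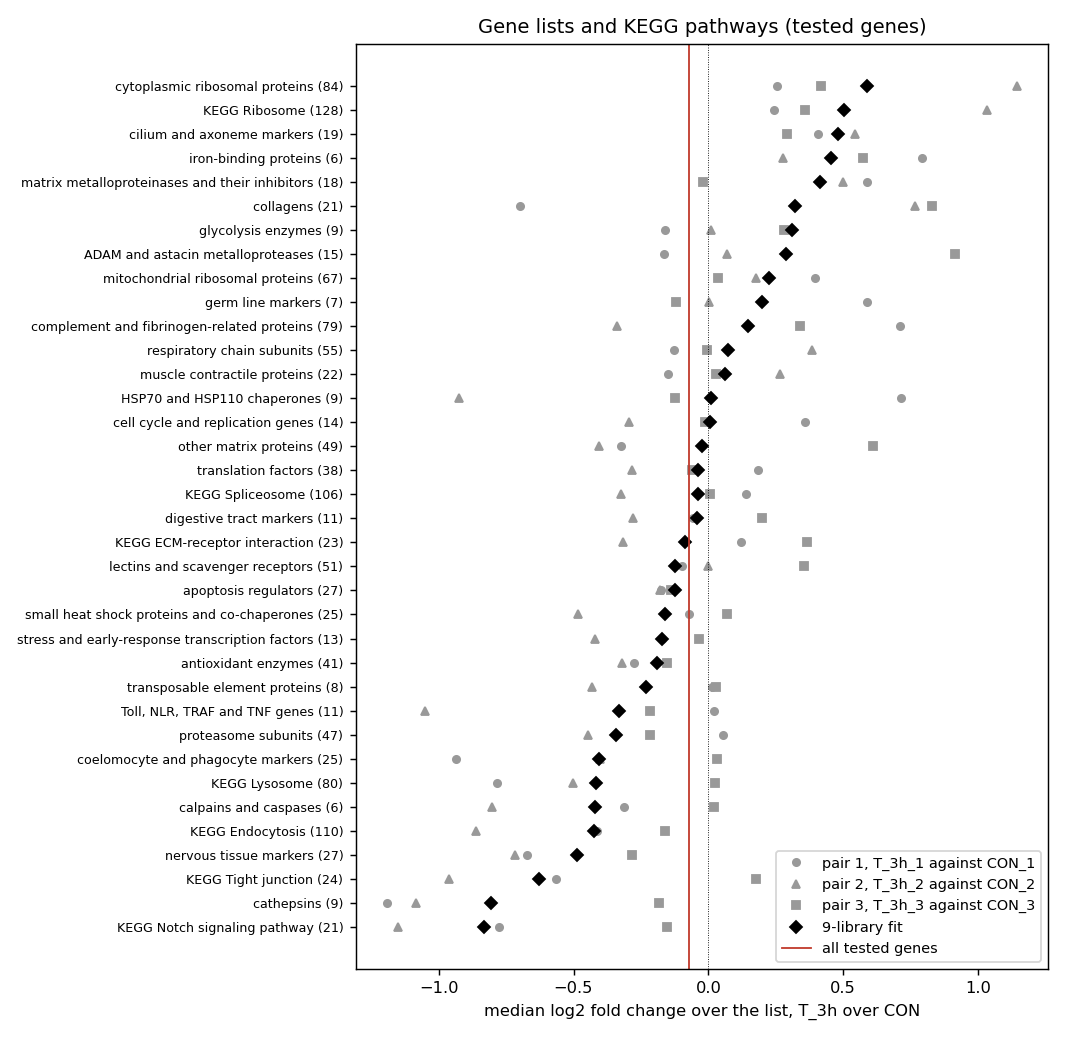
Median log2 fold change, T_3h over CON, of each gene list with at least 5 tested genes and of 7 KEGG pathways (number of tested genes in brackets), in the 9-library fit (diamonds) and within each pair (grey symbols), with the median of all genes as a red line at -0.07. The cytoplasmic ribosomal proteins lie highest at 0.59 and the Notch pathway lowest at -0.83, while the pairs of the collagens lie on both sides of 0.

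Among the 73 KEGG pathways with at least 15 tested genes, the lowest medians were those of Notch signaling (-0.83, 21 genes), tight junction (-0.63, 24), inositol phosphate metabolism (-0.52, 15), the phosphatidylinositol signaling system (-0.52, 21), AGE-RAGE signaling (-0.52, 28) and regulation of the actin cytoskeleton (-0.51, 27), against -0.18 over all genes with a KEGG pathway. Salivary secretion (0.63, 18 genes), ribosome (0.50, 128), herpes simplex infection (0.13, 15), nucleotide excision repair (0.10, 19), ribosome biogenesis (0.03, 44) and N-glycan biosynthesis (0.02, 20) had the highest. Pathway names come from vertebrates and label the genes, not a process of this tissue. In Notch signaling, by which neighbouring cells exchange signals through membrane-bound ligands, 0 of 21 genes passed the adjusted threshold, 0 were higher and 5 lower past the study's thresholds (3.75% and 5.96% of all genes), and 11 were lower and 0 higher in all 3 pairs (23.3% and 16.7% of all genes). Without T_3h_2 the median was -0.52. Named ones were fibropellin-1 (MSTRG.197, log2 fold change -1.39) and the ubiquitin ligase DTX4 (MSTRG.46401, -1.27), known as deltex, a regulator of Notch. A gene described as a neurogenic locus Notch protein-like (MSTRG.28271) fell outside the pathway list, with 0.508, 0.655 and 2.23 FPKM in T_3h libraries, against 7.76, 7.89 and 4.22 FPKM in CON libraries and a log2 fold change of -1.89 ± 0.36 (SE; limma, Benjamini-Hochberg adjusted p = 0.0492).

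The tight junction pathway held 2 rises that are myosins, MSTRG.24083 and MSTRG.17224 above, among members with a negative median, 10 of 24 of which were lower in all 3 pairs, against 23.3% of all genes. The median of the pathway was -0.34 without T_3h_2. In ECM-receptor interaction, the binding of matrix proteins to cell surface receptors, 3 of 23 genes rose and 0 fell (0.954% and 0.935% of all genes). Past the study's thresholds 5 were higher and 0 lower (3.75% and 5.96% of all genes), while the median was -0.09. Of the 3, 2 were thrombospondin-1 (MSTRG.14033) and cartilage oligomeric matrix protein (MSTRG.26234), a related glycoprotein with 9.47, 19.5 and 15.6 FPKM in T_3h libraries, against 1.98, 3.84 and 3.26 FPKM in CON libraries and a log2 fold change of 1.95 ± 0.26 (SE; limma, Benjamini-Hochberg adjusted p = 0.0282). The third (MSTRG.44187) has no description and had 88.3, 33.6 and 6.49 FPKM in T_3h libraries, against 13.03, 2.16 and 1.57 FPKM in CON libraries, with a log2 fold change of 2.56 ± 0.39 (SE; limma, Benjamini-Hochberg adjusted p = 0.0347).

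Among the 190 GO terms with at least 15 tested genes, lamellipodium (-0.71, 16 genes), actin binding (-0.63, 29), phosphoprotein phosphatase activity (-0.62, 17), protein dephosphorylation (-0.62, 17), proteolysis in cellular protein catabolism (-0.59, 31) and protein complex binding (-0.58, 17) had the lowest medians, against -0.17 over all genes with a GO term. The highest were those of cytoplasmic translation (0.61, 18), the cytosolic large ribosomal subunit (0.59, 63), scavenger receptor activity (0.57, 19), receptor-mediated endocytosis (0.56, 20), the cytosolic small ribosomal subunit (0.51, 37) and the structural constituent of the ribosome (0.46, 125). In actin binding, 1 of 29 genes rose and 2 fell at the adjusted threshold (0.954% and 0.935% of all genes). Past the study's thresholds 2 were higher and 8 lower (3.75% and 5.96% of all genes), and 18 were lower and 2 higher in all 3 pairs (23.3% and 16.7% of all genes). Receptor-mediated endocytosis, with its median above 0, lay on the other side from the KEGG endocytosis pathway. The terms protein folding (43 genes, median -0.19) and unfolded protein binding (30 genes, -0.23) had no adjusted call, and response to heat, with 5 tested genes, had a median of -0.32 and none past either threshold.

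The levels after 1 h, which were compared with the same CON libraries, are given for 6 of the genes above. Complement component C3 (MSTRG.13902) had 16.5, 64.9 and 134 FPKM in T_1h libraries, near the T_3h levels in numbers 2 and 3. The 72 kDa type IV collagenase (MSTRG.29492) had 22.2, 43.2 and 37.9 FPKM in T_1h, above CON and below T_3h in each number. Melanotransferrin (MSTRG.32738) had 456, 1142 and 1054 FPKM, and number 3 was higher at 1 h than at 3 h. Natterin-3-like (MSTRG.22489) had 14.3, 99.9 and 61.7 FPKM, Kazal-type serine proteinase inhibitor 1 (MSTRG.18044) 12.1, 21.6 and 6.27 FPKM and ZO-1 (MSTRG.5059) 5.299, 7.53 and 12.3 FPKM in T_1h. In these last 3 genes each T_1h library lay between the CON and the T_3h library of its number.

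**Figure D5:**
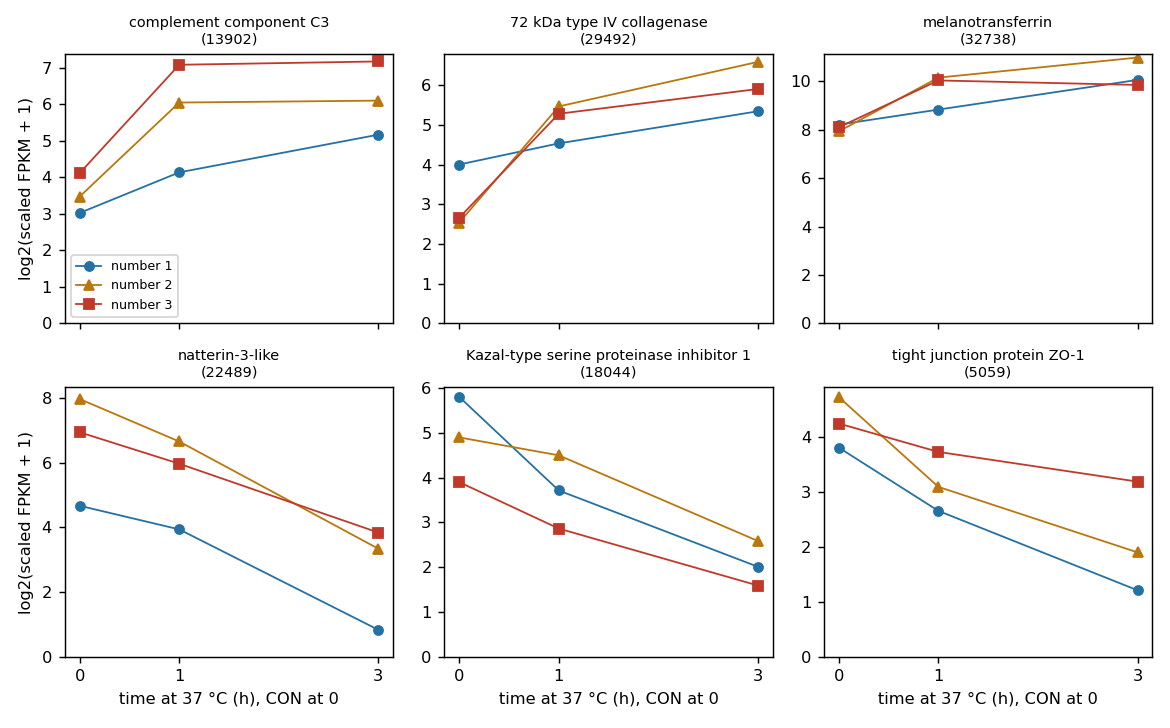
Level as log2(scaled FPKM + 1) against the hours of incubation, from CON over T_1h to T_3h, for 3 genes that rose and 3 that fell in T_3h, with 1 line per library number. Complement C3, the 72 kDa type IV collagenase and melanotransferrin are higher in T_3h than in CON in each number, and the 3 lower panels step down at each time in each number.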

How the data were processed

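Per the paper's methods, reads of 150-base paired-end libraries were aligned with the HISAT package to the *A. japonicus* genome, assembled with StringTie and merged with perl scripts. The submitters' processing notes name HISAT2 2.0 and StringTie 1.3.0, and also Bowtie 0.12.2 and the mouse build mm8, whose role is not given in the sources used here and which do not suit this species. The deposited values are FPKM per gene, which the authors computed, with 1 column per library. They are scaled to gene length and to the mapped fragments of a library, so a few very abundant genes lower all others. No read counts are given, so the number of reads behind a value is unknown and the precision rests on 3 libraries a group. Fold changes and p-values of the authors' own comparisons were not used.

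Here FPKM was divided by a median-ratio factor per library (7156 genes with at least 1 FPKM in all 9 libraries), transformed as log2(value + 1) and fitted with limma 3.58.1 (R 4.3.3, trend, empirical Bayes, two-sided) over all 9 libraries, with the groups and the replicate number as terms and 4 residual degrees of freedom. Genes with a mean of at least 1 FPKM over T_3h and CON were tested, and p-values were adjusted over all of them after Benjamini-Hochberg. Libraries of the same number were paired by the plan of the comparison, and the labels do not name a shared animal. Same-numbered T_3h and CON libraries deviated from their group means together (correlations across genes of 0.64, 0.68 and 0.67). The p-values measure the spread between these libraries. On simulated data with 200 of 20330 genes changed in T_3h against CON, 63% of changes of 2 on the log2 scale and 0% of changes of 1 were recovered at an adjusted p below 0.05. The simulation drew independent normal noise with the spread of each gene, an exactly additive replicate effect and no change in T_1h. The real libraries differ from this setting, so these shares do not give the share recovered in the real comparison. Named genes were the 15 largest rises and falls among described called genes with 3 pairs of one sign, for each list the most abundant member and the largest called rise and fall (with none called, the member of smallest p), and the 5 most abundant described genes. Other named genes were chosen after their values were seen. Lists are keyword matches on the leading description of a gene, and lists and members were chosen with earlier results of these data known. The KEGG and GO classes autophagy, Fc gamma R-mediated phagocytosis, immune response and sarcomere had fewer than 5 tested genes and are not given. None of the gene IDs matched the RefSeq gene table, so no coordinates or sequences are given. Python 3.11.15 (pandas 2.3.3, numpy 2.4.6, matplotlib 3.10.9) made the tables and figures.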

Additional observations from a re-analysis of the deposited data

How the results depend on the processing

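Counts below are of genes higher and lower in T_3h (limma, adjusted over all tested genes). At the adjusted threshold (194 and 190 genes), 0 and 0 genes passed without the replicate block (1877 at an unadjusted p below 0.05), with the 6 T_3h and CON libraries only (3367), without T_1h_1 (4110) and with no minimum mean FPKM (7021), where more genes were tested. There were 184 and 1159 without scaling, 271 and 194 with upper-quartile scaling, 137 and 117 with a pseudocount of 0.1, 242 and 271 with a minimum mean of 5 FPKM, where fewer genes were tested, and 217 and 213 without the trend. Leaving out 1 library gave 0 to 454 higher and 0 to 1206 lower. None of the called genes remained without CON_1, CON_2, T_1h_1, T_1h_2, T_3h_1 or T_3h_2 (2619 to 4110 genes at an unadjusted p below 0.05), while 71 and 58 remained without T_1h_3, 184 and 181 without CON_3, and 179 and 170 without T_3h_3. Past the study's thresholds (763 and 1212), there were 529 and 847 without the replicate block, 376 and 2822 without scaling, 1148 and 2292 with a pseudocount of 0.1 and 389 and 600 with a minimum mean of 5 FPKM, and 656 to 982 and 802 to 2064 with 1 library left out. The median log2 fold change of all genes was -0.40 without scaling and -0.02 with upper-quartile scaling, against -0.07. The causes of these differences were not tested where the construction of the fit does not give them.

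Of 90 named genes, 42 were called, and none of these changed sign under the 18 alternatives. The called genes had all pairs of one sign, and the alternatives reuse these libraries. The constant sign therefore largely follows from the choice of genes and is no separate evidence for the calls. The fit without T_1h_1 is counted more than once among the 18. Of the 1600 values of called and other named genes, 1062 kept direction and side, and 460 lost and 45 gained the call. The remaining 33 values, in 10 genes that were not called, changed sign. Without scaling these were 40S ribosomal protein S15-like (-0.18), tubulin alpha chain (-0.29), heat shock cognate 70 (-0.32), the core histone gene (-0.34), astacin (-0.37) and proliferating cell nuclear antigen (-0.47). The last was also at -0.0077 with 6 libraries, -0.000405 without T_1h_1 and -0.00128 with a pseudocount of 0.1. With upper-quartile scaling, aldolase was at 0.068, elongation factor 2 at 0.055 and actin at 0.046. With 1 library left out the ranges were -0.31 to 0.75 (heat shock cognate 70), -0.059 to 0.38 (core histone), -0.071 to 0.39 (astacin), -0.23 to 0.14 (proliferating cell nuclear antigen), -0.21 to 0.14 (aldolase), -0.26 to 0.17 (elongation factor 2), -0.38 to 0.44 (actin) and -0.39 to 0.042 (ATP synthase subunit beta), all log2 fold changes. Of 558 list medians, 498 moved by less than the spread between the pairs. Depth limits low genes, since the number of reads behind an FPKM value is unknown.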

Other observations

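Further described genes passed the adjusted threshold (limma, Benjamini-Hochberg) outside the lists. They were grouped after their values were seen, so the counts describe them and carry no test. Of 45 tested genes described as aminopeptidases, carboxypeptidases, dipeptidases or angiotensin-converting enzymes, enzymes that trim peptides from their ends, 7 rose and 0 fell (0.954% and 0.935% of all genes), while the median of the 45 was 0.05. An angiotensin-converting enzyme-like gene (MSTRG.32743) had 28.4, 45.5 and 31.6 FPKM in T_3h libraries, against 6.75, 7.45 and 8.36 FPKM in CON libraries, with a log2 fold change of 2.06 ± 0.23 (SE; limma, Benjamini-Hochberg adjusted p = 0.0239). Aminopeptidase N (MSTRG.16801) had 24.00, 23.7 and 34.6 FPKM in T_3h libraries, against 8.301, 5.86 and 12.4 FPKM in CON libraries, with a log2 fold change of 1.56 ± 0.23 (SE; limma, Benjamini-Hochberg adjusted p = 0.0339). Of 4 tested alpha-2-macroglobulin family genes 3 rose, and the most abundant was pregnancy zone protein (MSTRG.23773), with 236, 491 and 293 FPKM in T_3h libraries, against 47.9, 89.1 and 112 FPKM in CON libraries and a log2 fold change of 2.04 ± 0.31 (SE; limma, Benjamini-Hochberg adjusted p = 0.0347). Cubilin (MSTRG.33543) and low-density lipoprotein receptor-related protein 2 (MSTRG.42675), partners in the uptake of proteins by vertebrate epithelia, both rose, with log2 fold changes of 1.66 and 1.64, and so did 2 genes for nephrin, a cell adhesion protein of filtration slits (MSTRG.23808, 1.58, and MSTRG.21053, 1.83). Growth/differentiation factor 8 (MSTRG.27245), known as myostatin in vertebrates, and follistatin (MSTRG.35732), which binds it there, rose with log2 fold changes of 2.08 and 1.82.

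On the lower side, 5 of 20 tested cytochrome P450 and UDP-glucuronosyltransferase genes fell and 0 rose, with a median of -0.36, and 9 of 128 tested carriers and channels of small molecules fell and 0 rose, with a median of -0.45, against 0.935% (fell) and 0.954% (rose) of all genes. Some of these falls had a mean under 1 FPKM in T_3h and passed the filter through CON, so both counts lean downward by the choice of genes. Examples are cytochrome P450 2C21-like (MSTRG.14212), with a T_3h mean of 0.70 FPKM, and an organic cation transporter (MSTRG.15016), with 0.827, 0.281 and 1.34 FPKM in T_3h libraries. Aquaporin-9-like (MSTRG.20442), a water and glycerol channel, had 1.47, 0.421 and 1.38 FPKM in T_3h libraries, against 14.1, 4.83 and 5.59 FPKM in CON libraries, with a log2 fold change of -2.04 ± 0.25 (SE; limma, Benjamini-Hochberg adjusted p = 0.0282). Both bactericidal permeability-increasing protein genes that were called, lipid-binding proteins of innate immunity, fell (MSTRG.24478, log2 fold change -2.01, and MSTRG.9323, -2.01). Stabilin-1-like (MSTRG.29803), a scavenger receptor, had 5.35, 17.5 and 29.2 FPKM in T_3h libraries, against 35.2, 125 and 53.1 FPKM in CON libraries, and the log2 fold change was -2.04 ± 0.39 (SE; limma, Benjamini-Hochberg adjusted p = 0.0492).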
